A study of Drosophila melanogaster with 4 samples.

Results

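The tetraspanin genes of Drosophila melanogaster were examined in adult heads in which the eye driver GMR-Gal4 expressed an activated Yorkie, GMR>yki S168A (2 libraries), and in heads of the driver line GMR-Gal4 alone (control, 2 libraries). Each library was made from 30 adult heads, while the labels give neither age nor sex of the flies. GMR drives mainly in the developing and adult eye, so much of the head tissue in a library is not its main target. Members were all rows whose symbol begins with Tsp and a cytological position, together with late bloomer (lbm), 35 of the 16489 gene symbols in the count tables. The family was selected on the difference between yki S168A and control heads already seen in these same libraries, so its fold changes are given as a description and carry no p-value.

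Tetraspanins are small proteins that pass through the membrane repeatedly and expose a short and a long extracellular loop. They gather partner proteins such as integrins and membrane proteases into patches of the cell surface, and they take part in the sorting of cargo to late endosomes and lysosomes. Flies carry a large family, much of which sits in a tandem array at cytological position 42E, the Tsp42E cluster. Known roles in flies include synapse formation by motor neurons (lbm), lysosomal turnover of rhodopsin in photoreceptors (Tsp42Ej, also called Sunglasses), the smooth septate junctions of the midgut (Tsp2A) and regulation of the protease Kuzbanian, which cuts Notch (Tsp3A, Tsp26A and Tsp86D).

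The count tables summed to 17311383 and 18108814 reads in yki S168A libraries and to 16817968 and 15738860 in control libraries, so that 3 counts equal 0.170 to 0.184 CPM. Levels below are CPM, the counts of a gene scaled to the library's total counts, after TMM scaling of the libraries. The yki gene had 531 and 479 counts in yki S168A heads, against 217 and 300 counts in control heads, where reads of the transgene and the resident gene cannot be separated, and the eye pigment gene w, which often marks a transgene insertion, was at 55.1 ± 6.90 CPM in yki S168A heads and at 6.12 ± 0.02 CPM in control heads (SD, n = 2 each). The effects of the transgene, of where it is inserted and of the fly stock cannot be told apart here, and since separate crosses are not documented, p-values reflect the scatter of these particular libraries, part of which may be technical. Photoreceptor markers were present in both groups, with the 14 genes of a fixed list adding up to 4018 and 4316 CPM in yki S168A heads and to 12891 and 12610 CPM in control heads. Of 15 midgut markers 6 were at 0 in all libraries, and the list added up to 6.98 and 6.92 CPM in yki S168A heads and 5.43 and 5.52 CPM in control heads, with 3 tested and 0 called by edgeR (0 at an unadjusted p below 0.05, 0 by DESeq2 or limma-voom). In bulk heads, fewer cells of a type and less RNA per cell cannot be told apart.

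The family as a whole was close to double its control level in yki S168A heads, and the increase lay in the Tsp42E cluster. Summed over the 35 genes, the family reached 2174 and 1978 CPM in yki S168A heads, against 1074 and 1079 CPM in control heads, a ratio of 1.93. The 18 genes of the Tsp42E cluster made up 1734 and 1514 CPM of this in yki S168A heads and 630 and 581 CPM in control heads, a ratio of 2.68. The 17 dispersed genes made up 439 and 464 CPM in yki S168A heads and 444 and 498 CPM in control heads, a ratio of 0.958. The cluster therefore supplied 79.8% and 76.6% of the tetraspanin signal in yki S168A heads, against 58.6% and 53.8% in control heads. Within the dispersed sum, Tsp97E alone held 199 and 197 CPM in yki S168A heads, against 230 and 285 CPM in control heads. Tsp74F went the other way, at 64.2 and 98.6 CPM in yki S168A heads, against 35.5 and 27.3 CPM in control heads.

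**Figure D1:**
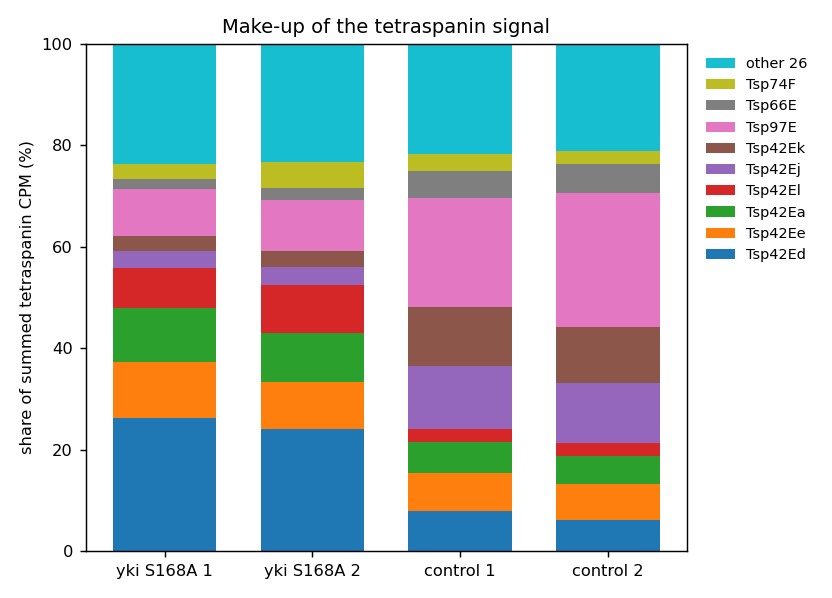
Stacked bars give the share of the summed tetraspanin CPM (percent, vertical axis) held by each of 9 genes and by the other 26 together, for the 2 yki S168A and the 2 control libraries. Tsp42Ed held 26.3% and 24.0% in yki S168A heads and 7.94% and 6.13% in control heads, where Tsp97E held the most, 21.4% and 26.4%.

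The members differ in structure as well as in place. The cluster covers 73.4 kb of chromosome arm 2R, from 6992676 to 7066113 (dm6 coordinates, Ensembl release 115 annotation), with 15 genes on the plus strand and 3 on the minus strand. Its proteins are short and alike in length, 208 to 250 residues with a median of 221, and its coding sequences span 3 to 5 exons with a median of 5. The dispersed genes lie on X (3), 2L (5), 2R (2), 3L (4) and 3R (3), and their proteins are longer and more varied, 228 to 362 residues with a median of 267, from 1 to 6 coding exons with a median of 3. The dispersed set includes Tsp42A and Tsp47F, which are on 2R but outside the array.

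Of the 35 members 29 had enough counts to enter the fit across all genes (edgeR's quasi-likelihood test, 10896 genes). Of these, 10 were higher and 2 lower in yki S168A heads at an adjusted p below 0.05, and 17 were not called. Across all tested genes 27.6% were called, 15.1% higher and 12.5% lower. The balance of directions over all genes depended on the scaling: 1647 were higher and 1359 lower with TMM, against 1276 higher and 1924 lower with upper-quartile factors and 1356 higher and 1679 lower with library totals. In the cluster 17 genes were tested, and 9 were higher, 2 lower and 6 not called, with a median log2 fold change of 1.60. Of the dispersed genes 12 were tested, and 1 was higher and 11 were not called, with a median log2 fold change of −0.08, beside 0.01 over all tested genes. None of the dispersed genes was lower by edgeR, DESeq2 or limma-voom (0 each), while 3 were lower at an unadjusted p below 0.05 in edgeR. Under upper-quartile scaling, which moved the median of all genes to −0.15, 3 dispersed genes were lower, and under plain library totals 2 were. These calls come from the contrast on which the family was proposed, so nothing is read from their share, and the difference between the cluster and the dispersed genes was not tested.

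**Figure D2:**
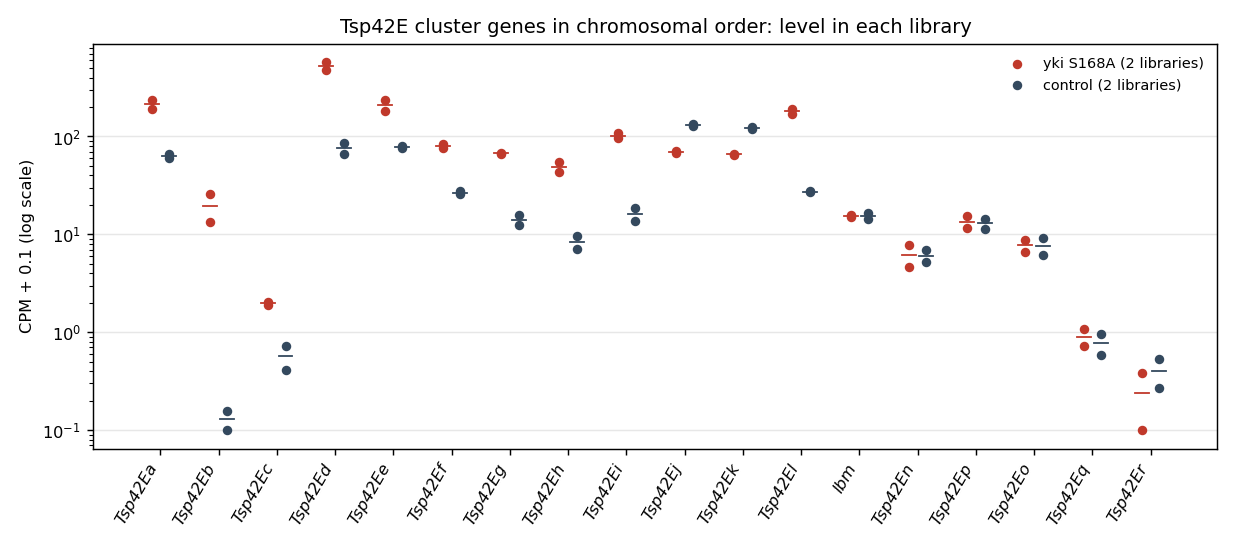
Each point is a library, with CPM plus 0.1 on a log axis and the 18 genes of the Tsp42E cluster in chromosomal order, and short lines mark group means. The yki S168A libraries lie above the control libraries for 10 genes between Tsp42Ea and Tsp42El and below them for Tsp42Ej and Tsp42Ek, while for the last 6 genes the groups overlap.

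The most abundant member in yki S168A heads was Tsp42Ed (FBgn0029507, 2R 7009498 to 7011739, minus strand). It stood at 571 and 474 CPM in yki S168A heads, against 85.3 and 66.1 CPM in control heads, a log2 fold change of 2.79 ± 0.18 (SE, n = 2 each). The groups were far apart, and in yki S168A heads this gene alone held 26.3% and 24.0% of the tetraspanin signal. Tsp42El (FBgn0033134, 2R 7045769 to 7048538, plus strand) was at 171 and 189 CPM in yki S168A heads and at 27.5 and 26.8 CPM in control heads, with a log2 fold change of 2.73 ± 0.15. Tsp42Ei (FBgn0033130, 2R 7035125 to 7036949, plus strand) was at 108 and 96.5 CPM in yki S168A heads and at 18.7 and 13.6 CPM in control heads, with a log2 fold change of 2.66 ± 0.19. These 3 genes thus differed by similar amounts, 6.90-fold, 6.62-fold and 6.32-fold, from control levels that were not alike. Part of the Tsp42Ei signal could be shared, since 14.0% of its exonic bases lie opposite CG33914, and no source states whether the counting used strand.

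Neighbours of Tsp42Ei on its left were also higher, Tsp42Eh by a similar factor and Tsp42Ef by a smaller one. Tsp42Eh was at 54.5 and 43.4 CPM in yki S168A heads, against 9.42 and 7.06 CPM in control heads (log2 fold change 2.57 ± 0.23, SE). Tsp42Eg was at 67.7 and 66.2 CPM in yki S168A heads, against 12.2 and 15.8 CPM in control heads (2.26 ± 0.19). Tsp42Ef was at 76.7 and 84.1 CPM in yki S168A heads, against 27.4 and 25.5 CPM in control heads (1.60 ± 0.16). In all of these the lower yki S168A library exceeded the higher control library by more than the gap between libraries of a group.

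Abundant genes at the left end of the array were higher by smaller factors than Tsp42Ed. Tsp42Ea was at 233 and 191 CPM in yki S168A heads, against 66.6 and 60.5 CPM in control heads (log2 fold change 1.74 ± 0.16, SE), and 97 of its exonic bases are shared on the same strand with CG30159. Tsp42Ee, which lies beside Tsp42Ed on the opposite strand, was at 238 and 184 CPM in yki S168A heads, against 79.7 and 76.3 CPM in control heads (1.44 ± 0.16). Tsp42Ed and Tsp42Ee stood at similar CPM in control heads, but in yki S168A heads Tsp42Ee had 0.417 and 0.388 counts for each count of Tsp42Ed, against 0.934 and 1.15 in control heads.

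Tsp42Eb was close to absent from control heads. This gene lies within Tsp42Ea on the same strand and shares 0 exonic bases with it. It had 428 and 232 counts in yki S168A heads, against 1 and 0 counts in control heads, so the ratio of summed counts, scaled for library size, was 655 with an exact 95% counting interval of 117 to 25894. Its fitted log2 fold change, 9.04, rests on that 1 control count and moved between 8.24 and 11.36 as each library was left out, with 11.36 without control replicate 1. Each fit with 1 library left out, here and for the other genes and lists, set 2 libraries against 1, took its spread from the remaining pair and assumed that the lone library varies likewise, so its p-values are limited by that. Counting intervals and floors cover counting error only, since the labels name no molecular identifiers. Tsp42Ec, the next gene, was rare in both groups, with 32 and 32 counts in yki S168A heads, against 11 and 5 counts in control heads. The groups of Tsp42Ec did not overlap, its log2 fold change was 1.97 with a 95% interval of 0.38 to 3.56, and it was not called in the main fit or in any alternative.

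Tsp42Ej (FBgn0033132, 2R 7040136 to 7042762) and Tsp42Ek (FBgn0033133, 2R 7042656 to 7044710), both on the plus strand, went the other way. Tsp42Ej, the gene of the lysosomal photoreceptor protein Sunglasses, was at 71.4 and 68.3 CPM in yki S168A heads, against 132 and 129 CPM in control heads, a log2 fold change of −0.90 ± 0.14 (SE, n = 2 each). Tsp42Ek was at 66.5 and 64.6 CPM in yki S168A heads, against 126 and 119 CPM in control heads, also −0.90 ± 0.14. The groups were separate in both genes, and the 2 genes kept nearly the same proportion in every library, with 0.932 and 0.946 Tsp42Ek counts per Tsp42Ej count in yki S168A heads and 0.950 and 0.925 in control heads. The annotation gives them 107 shared exonic bases on the same strand, 9.6% of Tsp42Ej and 8.9% of Tsp42Ek, and no source states how such reads were counted. They are flanked by Tsp42Ei and Tsp42El, which were higher in yki S168A heads. Beside this decrease, 13 of 14 photoreceptor markers were lower by the same fit, where 12.5% of all tested genes were. Their list had a median log2 fold change of −1.55. The rhodopsin gene Rh6 was far from the rest, at 1.70 ± 0.17 CPM in yki S168A heads and 367 ± 11.5 CPM in control heads (SD, n = 2 each, edgeR adjusted p = 4.80e-09). Log2 fold changes of the other called markers ran from −0.67 (inaD) to −2.96 (Rh3). Another rhodopsin gene, Rh5, was not called, at 130 ± 15.3 CPM in yki S168A heads and 115 ± 7.43 CPM in control heads (log2 fold change 0.17). The part of the lower photoreceptor markers in the fall of Tsp42Ej and Tsp42Ek was not tested.

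The right end of the array did not differ detectably at this depth. The gene lbm, which acts in synapse formation, was at 15.5 and 14.8 CPM in yki S168A heads and at 14.3 and 16.3 CPM in control heads (log2 fold change −0.01, 95% interval −0.51 to 0.49). Tsp42En was at 7.65 and 4.54 CPM in yki S168A heads and at 5.14 and 6.75 CPM in control heads (0.03, −0.80 to 0.87). Tsp42Ep was at 15.2 and 11.6 CPM in yki S168A heads and at 14.4 and 11.4 CPM in control heads (0.05, −0.52 to 0.63). In all 3 genes the groups overlapped. Tsp42Eo was at 8.68 and 6.53 CPM in yki S168A heads and at 9.08 and 6.02 CPM in control heads, but all of its exonic bases (100%) lie opposite exons of Tsp42Ep, so the 2 genes may not be separate measurements. Tsp42Eq had 16 and 11 counts in yki S168A heads and 15 and 8 counts in control heads. Tsp42Er had 0 and 5 counts in yki S168A heads and 3 and 7 counts in control heads and was too rare to enter the fit.

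Along the chromosome, the 12 genes from Tsp42Ea to Tsp42El, which cover 55.9 kb, held all 11 called members of the array. Their median log2 fold change was 2.11 over 12 tested genes. The 6 genes from lbm to Tsp42Er had 0 called by edgeR, also 0 at an unadjusted p below 0.05 and 0 by DESeq2 or limma-voom, and a median of 0.03 over 5 tested genes, and their summed level was 48.0 and 38.4 CPM in yki S168A heads, against 44.0 and 41.3 CPM in control heads. The boundary between Tsp42El and lbm was chosen after the values were seen and has no test. The libraries of the groups were apart in all 12 genes of the left stretch, 10 above and 2 below control, and overlapped in all 6 of the right stretch. Of the 17 dispersed genes, 4 had both yki S168A libraries above both control libraries and 6 had them below. Among all tested genes the yki S168A libraries lay above both control libraries in 32.1% and below both in 31.2%.

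**Figure D3:**
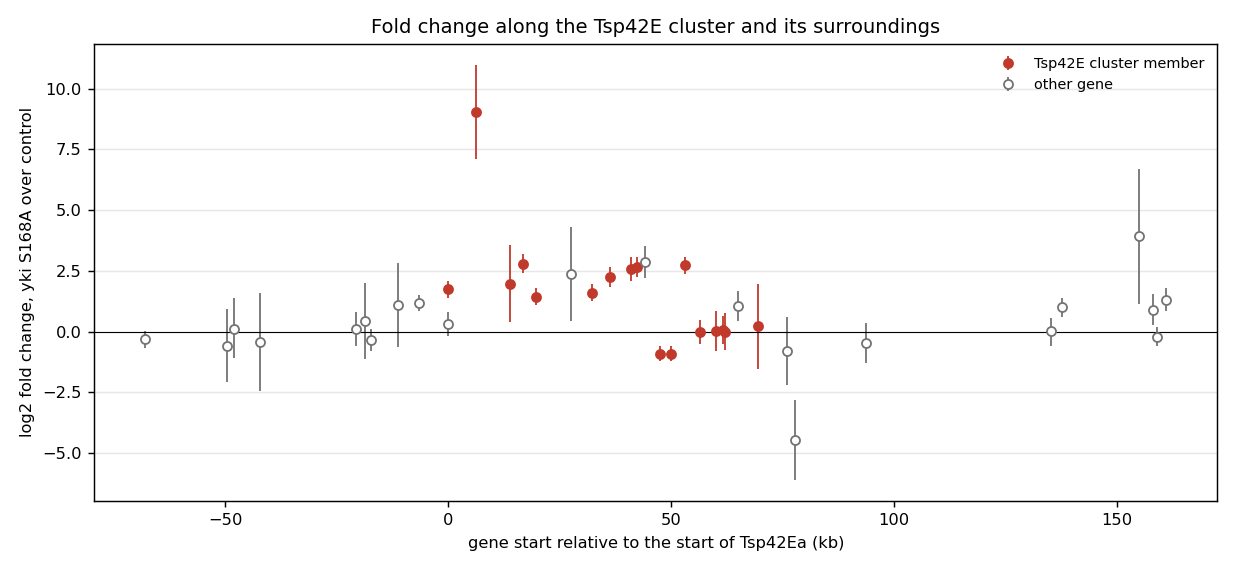
Log2 fold change of yki S168A over control with its 95% interval (vertical axis) is plotted against the start of each tested gene in kb from the start of Tsp42Ea, filled for members of the array and open for other genes. High values of members run from Tsp42Ea to Tsp42El, broken by Tsp42Ej and Tsp42Ek at −0.90, and members to the right of Tsp42El lie near 0.

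Other genes of the same stretch of chromosome give the local setting. Of 27 non-family genes inside the array or among the 10 nearest protein-coding genes on each side, 22 were tested, and 7 were higher and 1 lower (36.4% called, beside 27.6% of all genes). Inside the array 4 were tested. CG33914, which ends opposite the end of Tsp42Ei, was at 40.2 and 27.9 CPM in yki S168A heads, against 5.88 and 3.44 CPM in control heads (log2 fold change 2.86 ± 0.30, SE, edgeR adjusted p = 3.86e-05). The glycosyltransferase gene pgant3, between Tsp42Ep and Tsp42Eq, was 2.07-fold higher (edgeR adjusted p = 0.0187). With control replicate 1 left out its adjusted p was 0.105, and with yki S168A replicate 2 left out it was 0.120. CG30159, which overlaps the first bases of Tsp42Ea, was not called (log2 fold change 0.32, 95% interval −0.17 to 0.82), nor was CG43647 (2.37, 0.46 to 4.29).

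On the left side, 1 of 9 tested genes was called. This was CG17002, the nearest to the array, at 89.5 and 83.8 CPM in yki S168A heads, against 40.0 and 36.2 CPM in control heads (2.27-fold higher, edgeR adjusted p = 0.000190). On the right side 5 of 9 were called. The called gene nearest to the array there was lower: CG12831 had 9 and 0 counts in yki S168A heads, against 105 and 97 counts in control heads (edgeR adjusted p = 0.00104), and was not called by DESeq2 (adjusted p = 0.0850). Further right, Cyp9b2 was 2.01-fold and Spn43Ad 2.50-fold higher (edgeR adjusted p = 0.00145 and 0.00108). Spn43Aa and pk were higher at the edge of the threshold (edgeR adjusted p = 0.0396 and 0.0398), and each of these calls was lost without at least 3 of the 4 libraries in turn, pk without control replicate 1 (0.163), control replicate 2 (0.167) or yki S168A replicate 2 (0.133), and Spn43Aa without any of the 4 (0.0613 to 0.336).

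Of the dispersed genes, Tsp74F (FBgn0036769, 3L 17891820 to 17895862, minus strand) was the 1 that was called. It was at 64.2 and 98.6 CPM in yki S168A heads, against 35.5 and 27.3 CPM in control heads, with a log2 fold change of 1.37 ± 0.22 (SE, n = 2 each). The groups were apart, although the yki S168A libraries differed more from each other than the control libraries did. The log2 fold change of Tsp74F stayed between 1.03 and 1.65 as each library was left out.

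The most abundant dispersed gene was Tsp97E (FBgn0039465, 3R 26961064 to 26964817, minus strand), at 199 and 197 CPM in yki S168A heads and at 230 and 285 CPM in control heads (log2 fold change −0.38, 95% interval −0.71 to −0.05). Tsp66E was at 44.1 and 49.5 CPM in yki S168A heads and at 58.1 and 61.3 CPM in control heads (−0.35, −0.69 to −0.01). Tsp5D was at 27.8 and 31.8 CPM in yki S168A heads and at 40.9 and 39.2 CPM in control heads (−0.43, −0.81 to −0.05). In these 3 genes the yki S168A libraries lay just below the control libraries without the difference being called, and all 3 were called lower under upper-quartile scaling. Tsp39D, at 12.7 and 12.6 CPM in yki S168A heads and 13.4 and 15.2 CPM in control heads, and Tsp96F, at 17.9 and 17.8 CPM in yki S168A heads and 19.4 and 20.3 CPM in control heads, differed by less (log2 fold changes −0.17 and −0.15).

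**Figure D4:**
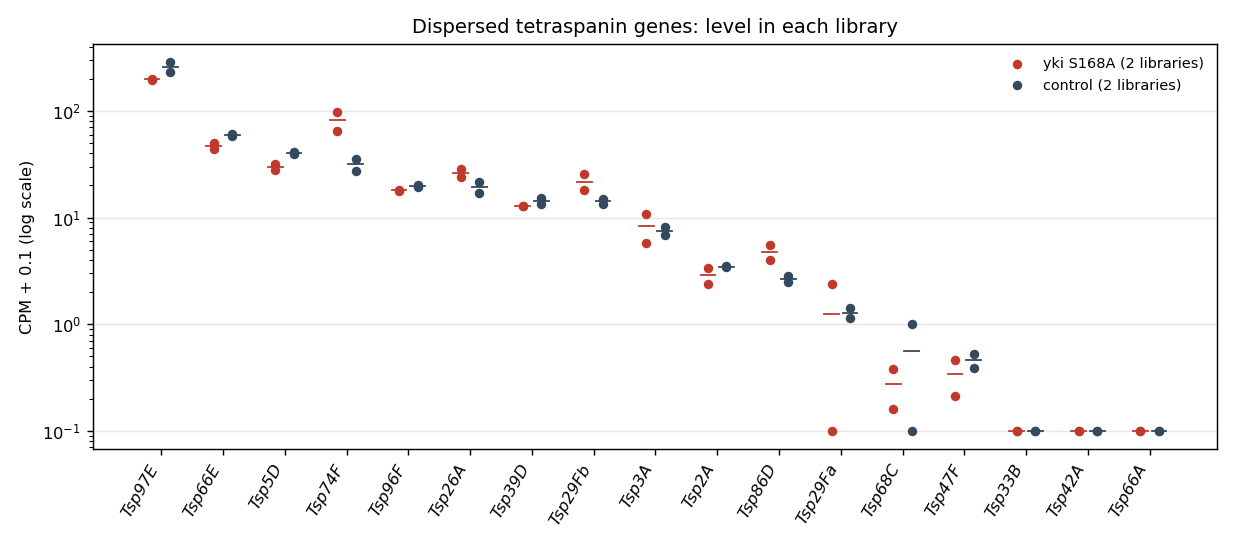
Each point is a library, with CPM plus 0.1 on a log axis and the 17 dispersed tetraspanin genes ordered by their mean control level, and short lines mark group means. Tsp74F, at 64.2 and 98.6 CPM in yki S168A heads and 35.5 and 27.3 CPM in control heads, was the 1 dispersed gene called. The yki S168A libraries lie above the control libraries for 4 of the 17 genes and below them for 6.

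The Kuzbanian-regulating tetraspanins did not pass the threshold. Tsp26A was at 28.5 and 24.0 CPM in yki S168A heads and at 17.0 and 21.3 CPM in control heads (log2 fold change 0.45, 95% interval −0.01 to 0.92). Tsp86D was at 5.40 and 3.86 CPM in yki S168A heads and at 2.74 and 2.39 CPM in control heads (0.84, −0.12 to 1.80). Tsp3A was at 10.7 and 5.73 CPM in yki S168A heads and at 6.74 and 7.98 CPM in control heads (0.15, −0.64 to 0.94), so its groups overlapped. The protease gene kuz itself was at 90.0 ± 7.65 CPM in yki S168A heads and at 98.0 ± 4.41 CPM in control heads (SD, n = 2 each; log2 fold change −0.12, edgeR adjusted p = 0.587). Of 9 genes for Notch, its ligands and the enzymes that cut it, 3 were higher and the others were not called. The share called was 33.3%, all of it higher, beside 27.6% of all tested genes called and 15.1% called higher. The 3 higher genes were the ligand gene Ser at 3.13-fold (edgeR adjusted p = 0.0156) and the gamma-secretase genes Psn (0.00839) and aph-1 (0.0184). The count was 1 without control replicate 1 and 0 without control replicate 2, and Ser was not called without control replicate 1 (0.0848), control replicate 2 (0.0567) or yki S168A replicate 2 (0.0880).

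Tsp2A, whose protein builds smooth septate junctions with the products of Ssk and mesh, was scarce. It had 54 and 40 counts in yki S168A heads and 58 and 55 counts in control heads (log2 fold change −0.28, 95% interval −1.28 to 0.73). Its partner genes diverged. Ssk was at 44.7 ± 6.07 CPM in yki S168A heads and at 18.2 ± 1.25 CPM in control heads (SD, n = 2 each; 2.45-fold higher, edgeR adjusted p = 0.000458). CG13704, now named hoka and encoding another protein of these junctions, was at 1.94 ± 1.19 CPM in yki S168A heads and at 16.3 ± 0.01 CPM in control heads (8.28-fold higher in control, edgeR adjusted p = 0.000162). For mesh the log2 fold change was −0.59 and the edgeR adjusted p 0.268, not past the threshold.

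Tsp29Fa and Tsp29Fb are adjacent genes on 2L. Tsp29Fb was at 25.3 and 17.9 CPM in yki S168A heads and at 14.9 and 13.3 CPM in control heads (log2 fold change 0.61, 95% interval 0.08 to 1.14), apart but not called. Tsp29Fa had 0 and 40 counts in yki S168A heads and 23 and 17 counts in control heads. The replicates of Tsp29Fa in yki S168A heads thus lay on both sides of control, and 53.6% of its exonic bases lie opposite an antisense RNA gene. Tsp47F (6 and 2 counts in yki S168A heads, 5 and 7 in control heads) and Tsp68C (1 and 5 counts in yki S168A heads, 16 and 0 in control heads) were too rare to test. Tsp33B, Tsp42A and Tsp66A had 0 counts in all 4 libraries, below the 3 counts per library that this depth resolves. All exonic bases of Tsp66A (100%) are shared on the same strand with CG42660 and CG42661, so reads of Tsp66A may have been given to those genes or to none.

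Levels of different genes can be compared per length of exon. In yki S168A heads the order per kb was Tsp42Ed with 419 CPM per kb, Tsp42El with 169, Tsp42Ee with 144, Tsp42Ea with 105, Tsp42Ei with 78.3 and Tsp97E with 75.1. In control heads the order was Tsp42Ej with 117 CPM per kb, Tsp42Ek with 102, Tsp97E with 97.7, Tsp42Ed with 60.7, Tsp42Ee with 53.3 and Tsp42Ea with 31.4. Thus Tsp42Ed led in yki S168A heads, where Tsp42Ej and Tsp42Ek ranked 7 and 10 of 35, while Tsp42Ej led in control heads, with Tsp42Ek next. Some neighbours in these orders overlapped between libraries. In yki S168A heads Tsp42El was at 161 and 178 and Tsp42Ee at 163 and 126 CPM per kb, and in control heads Tsp42Ek was at 105 and 98.9 and Tsp97E at 87.2 and 108 CPM per kb. Tsp42Eb ranked 13 in yki S168A heads and 32 in control heads.

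**Figure D5:**
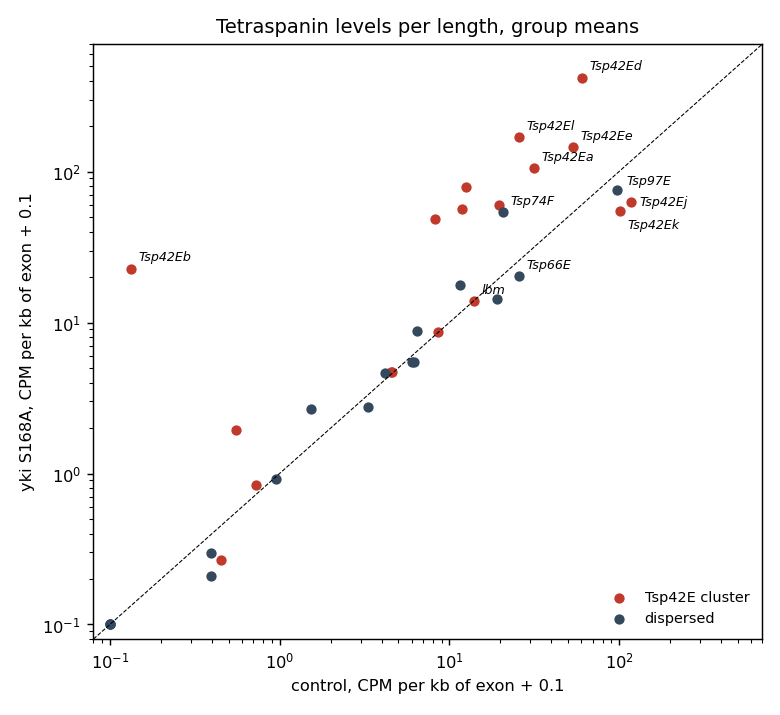
Mean level of each member in yki S168A heads (vertical) is plotted against its mean in control heads (horizontal), both as CPM per kb of exon plus 0.1 on log axes, with a dashed line of equality. Tsp42Ed, at 419 CPM per kb in yki S168A and 60.7 in control heads, lies far above the line, Tsp42Ej and Tsp42Ek lie below it, and most dispersed genes follow it.

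Over the 29 members with at least 50 counts in all, gaps between the 2 libraries of a group were taken on the log2 scale of CPM plus 0.5. Their median was 0.27 in yki S168A heads and 0.18 in control heads. Gaps varied among members, and the widest was 2.47 for Tsp29Fa in yki S168A heads and 0.56 for Tsp42Eo in control heads. The Tsp29Fa gap depends on the added 0.5, since its counts there were 0 and 40, and gaps of other members near 0 CPM are likewise narrowed by it.

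Genes for tetraspanin partners and for the compartments where tetraspanins sit were read from the same fit. Of 10 integrin subunit and adaptor genes 6 were higher and the others were not called, among them the alpha subunit gene scb at 19.4 ± 0.60 CPM in yki S168A heads and 5.07 ± 0.38 CPM in control heads (SD, n = 2 each; 3.83-fold, edgeR adjusted p = 0.000298). The beta subunit gene mys was 65.7 ± 15.4 CPM in yki S168A heads and 35.0 ± 3.82 CPM in control heads (edgeR adjusted p = 0.00494). The integrin count was 3 without control replicate 2. Of 20 ESCRT and vesicle genes 10 were higher, where 15.1% of all tested genes were, led by Chmp1 at 1.75-fold (edgeR adjusted p = 0.00133), and 1 was lower, the secretory GTPase gene Rab27 at 8.68 ± 0.25 CPM in yki S168A heads and 16.0 ± 0.78 CPM in control heads (adjusted p = 0.0233). The ESCRT and vesicle count of higher genes was 5 with upper-quartile factors or library totals and 2 when either control library was left out, and Rab27 was not called without control replicate 1 (0.147), control replicate 2 (0.0937) or yki S168A replicate 1 (0.0516).

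Of 19 lysosome genes 6 were higher and the others were not called, with a median log2 fold change of 0.43. The share called was 31.6%, all of it higher, beside 27.6% of all tested genes called and 15.1% called higher. The cathepsin genes CtsB1 (965 ± 5.53 CPM in yki S168A heads and 587 ± 33.8 CPM in control heads, SD, n = 2 each, edgeR adjusted p = 0.00485) and Cp1 (adjusted p = 0.00666) were higher, as was Ppt1 at 2.09-fold (0.00762, and 0.0705 without control replicate 1). The lysosome count of higher genes was 1 without control replicate 1 and 2 without control replicate 2, and 1 gene was lower when either yki S168A library was left out. Of 14 CD36 family receptor genes, 1 was higher, emp at 2.32-fold (edgeR adjusted p = 0.000123), and 5 were lower. Among the lower genes, CG31741 had 0 and 0 counts in yki S168A heads and 35 and 28 counts in control heads (edgeR adjusted p = 0.00649). The share called lower was 35.7%, beside 12.5% of all tested genes, and the share called higher was 7.14%, beside 15.1%. The CD36 family count of lower genes was 3 when either control library was left out, and that of higher genes was 2 without yki S168A replicate 2.

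Markers of cell types were read from the same fit, in which 27.6% of all tested genes were called. Of 11 tested cuticle and epidermis genes 7 were higher and the others were not called. Cpr49Ac was the most raised (73.6-fold, edgeR adjusted p = 1.17e-07), and Cpr65Ax1 was at 0 in all libraries. The list summed to 4671 and 5325 CPM in yki S168A heads and 580 and 559 CPM in control heads. Most of the yki S168A sum came from ple (2458 and 2370 CPM), obst-A (868 and 887 CPM) and Cpr49Ac (637 and 1039 CPM). Not called were Cpr47Ef, TwdlE, kkv and Ddc (log2 fold changes 0.15, −0.69, 0.30 and −0.10). With upper-quartile factors or library totals 1 gene of the list was lower. Of 10 glia markers 2 were higher and 1 lower, with moody, a receptor gene of the blood-brain barrier, at 4.99-fold (edgeR adjusted p = 7.98e-07) and the enzyme gene e lower (adjusted p = 0.0299), and sums of 920 and 968 CPM in yki S168A heads and 815 and 759 CPM in control heads. With either control library left out 0 glia markers were lower, and 3 were lower with upper-quartile factors and 2 with library totals. Of 9 hemocyte markers 3 were lower, among them Hml at 2.31-fold higher in control (edgeR adjusted p = 0.00477). The hemocyte list summed to 367 and 317 CPM in yki S168A heads and 398 and 371 CPM in control heads. Most of each hemocyte sum came from crq and vkg (log2 fold changes 0.27 and −0.19, not called). It therefore says little of the other hemocyte markers, and crq is also counted in the CD36 family. The share of glia markers called in either direction, 30.0%, was near that of all tested genes. The called hemocyte markers were all lower, 33.3% of the list, beside 12.5% of all tested genes called lower. The hemocyte count was 1 when either control library was left out and 5 without yki S168A replicate 1. Of 10 neuron markers 7 were lower, among them the synaptic vesicle gene nSyb at 1.87-fold higher in control (edgeR adjusted p = 0.00218), the list summing to 2603 and 3521 CPM in yki S168A heads and 4465 and 4768 CPM in control heads, and the count of lower genes was 2 without control replicate 1, 1 without control replicate 2 and 4 without yki S168A replicate 1. Of 8 fat body markers 1 was higher, Fbp1 at 2.76-fold (edgeR adjusted p = 0.0483, groups overlapping), and 5 were lower. Among these the yolk protein gene Yp1 was 3.53-fold higher in control (edgeR adjusted p = 0.00148). The list summed to 22629 and 13921 CPM in yki S168A heads and 57390 and 67847 CPM in control heads. Most of each sum came from the yolk protein genes Yp1, Yp2 and Yp3 (log2 fold changes −1.82, −1.79 and −1.76), so it says little of the other markers. Of those, Lsp1beta (−0.84) and Lpin (−0.54) were lower, and Lsp2 (−0.94) and Fbp2 (0.63) were not called. The labels give no sex, and its part in these levels was not tested. The Fbp1 call was lost with RLE factors (0.0548), upper-quartile factors (0.0726), library totals (0.0823) and DESeq2 (0.315), among others, and its log2 fold change of 1.46 was 0.45 without yki S168A replicate 2. The fat body count of lower genes was 2 without control replicate 1 and 3 without control replicate 2, and that of higher genes was 0 without control replicate 1 or yki S168A replicate 2 and 2 without yki S168A replicate 1. Of 10 muscle markers 0 were called by edgeR, also 0 at an unadjusted p below 0.05 and 0 by DESeq2 or limma-voom, but 4 were lower without yki S168A replicate 2, the list summing to 4429 and 7037 CPM in yki S168A heads and 6375 and 5682 CPM in control heads. The part of these cell types in the levels of the array was not tested.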

How the data were processed

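RNA from 30 adult heads per library was made into libraries with the Lexogen SENSE mRNA kit, per the labels' protocols. The authors deposited whole-number read counts per gene symbol, 1 table for each of 4 libraries. Reads were placed on dm6, as the submitters' processing notes record. Aligner, counter, annotation and strand setting were not given in the sources used. Each deposited table held 16509 lines, of which 37 shared 17 symbols and were summed to leave 16489 symbols.

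Counts were fitted in edgeR 4.0.16 (R 4.3.3) with filterByExpr (10896 genes kept, 5593 left out), TMM scaling, and quasi-likelihood tests with group as the sole term, Benjamini-Hochberg adjusted over all tested genes. The biological coefficient of variation common to all genes was 20.7%, with 11.2 total degrees of freedom. SE was derived from the fold change and its F statistic, and SDs are over 2 libraries. Positions, exon lengths and overlaps came from the Ensembl release 115 annotation (dm6 coordinates), to which all 35 members matched by symbol. No nucleotide or protein sequence was analysed here, so the planned protein and promoter features are limited to lengths and exon numbers.

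The family, gene lists and tests were chosen with earlier results of these data known. Named were all members, the called neighbours, and of each list the called genes with the largest and smallest fold change. Added after their values were seen were kuz, mesh, mys, Psn, aph-1, CtsB1, Cp1, CG30159, CG43647 and Cpr65Ax1. The same holds for Rh3, Rh5, inaD, Yp2, Yp3, Lsp1beta, Lpin, Lsp2 and Fbp2. Also added then were ple, obst-A, Cpr47Ef, TwdlE, kkv, Ddc, crq and vkg. Alternatives were RLE, upper-quartile and library-total scaling, no filter, a mean of at least 10 CPM, DESeq2 1.42.0, limma-voom (limma 3.58.1), a replicate block, an adjusted p below 0.01 and each library left out. Chosen after seeing the data were a legacy fit, leaving out Tsp42Ek, and members with at least 50 counts. The members with at least 50 counts were the 29 tested members, read from the main fit. That alternative therefore had to repeat the main counts and is no separate check. The main test was run on simulated counts with a small share of changed genes, balanced in direction, and the same dispersion for every gene. That simulation does not probe the dependence on scaling described above.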

Additional observations from a re-analysis of the deposited data

How the results depend on the processing

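The 12 called members kept their call in each of the 13 or 14 alternatives that tested them, which describes the contrast on which the family was proposed and is no independent support. Where a library was left out, the lone library of its group was assumed to vary like the other group's pair. Of the 17 members not called, 13 were called in 0 alternatives; the other 4 were Tsp29Fb, Tsp5D, Tsp66E and Tsp97E. The cluster's median log2 fold change, 1.60, was 1.44 with upper-quartile factors and 1.49 with library totals, where the dispersed genes called lower numbered 3 and 2. Replicate numbers are shared by the groups, but the deviations of same-numbered libraries correlated at 0.0184 and the labels say nothing of pairing; with a replicate block, 2 dispersed genes were higher and 1 lower. Leaving out 1 library in turn gave 1 to 2 dispersed genes higher, 983 to 1688 genes higher and 648 to 1435 lower over all genes, and 5 to 8 called neighbours, against 1647, 1359 and 8 in the full fit. An adjusted p below 0.01 gave 1074 higher and 617 lower genes. The called neighbours numbered 5 with a mean of at least 10 CPM, 5 with DESeq2 and 5 at an adjusted p below 0.01. With a mean of at least 10 CPM, CG12831, Spn43Aa and pk were not tested, and the other called neighbours kept their call. Without Tsp42Ek, which was dropped from the count and not from the fit, 1 cluster gene was lower, an outcome fixed in advance. How small a difference the depth resolves for members with few counts was not measured.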
